A study of Homo sapiens with 30 samples.

Results

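Dual-specificity phosphatases, Sprouty and SPRED proteins and a few early transcription factors and signalling proteins are switched on by the extracellular signal-regulated kinase (ERK) pathway, and 9 such genes were followed in human airway cells given nanoparticles. They were the phosphatase genes DUSP4, DUSP5 and DUSP6, the inhibitor genes SPRY2, SPRY4 and SPRED2, the transcription factor gene ETV5, and the early response genes IER3 and PHLDA1. Membership required a gene symbol that was exactly one of these names in the platform's probe annotation. All 9 were on the table, with 20 probe sets, out of 11963 genes and 22215 probe sets that were not array controls. The members were chosen by a measured value: they were higher after 24 h with 100 ug/ml of titanium dioxide nanobelts than in controls of that time. That contrast is therefore given as a description, with no test, as is each contrast that uses the nanobelt arrays of that dose and time.

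Messenger RNA was measured with Affymetrix arrays in SAE cells, human epithelial cells of the small airways that were bought from Lonza and that the labels also call a cell line. Cells were lifted with trypsin, counted, replated in flasks and given particles at 10 or 100 ug/ml, or no particle as control. The particles were MWCNT (multi-walled carbon nanotubes, hollow fibres of carbon) and TiO2 (nanobelts of titanium dioxide, long flat crystals). RNA was taken after 24 h or 1 h from the cells that stayed attached. Each of the 10 groups held 3 biological replicates, 30 arrays in all, and that number limits the precision. The labels do not say how many donors the cells came from. If the replicates share a donor, p-values measure only the spread between cultures.

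Values are log2 levels per probe set, so a difference of 1 is a 2-fold change. The 30 array medians lay between 7.15 and 7.21, and no array repeated another. Of the epithelial markers, KRT18, KRT8 and CDH1 had means above the table's median of 7.18, while EPCAM and KRT19 lay below it. The basal keratin KRT5 had a median of 7.26 over the 30 arrays, KRT14 one of 3.94, and the secretory marker SCGB1A1 one of 4.37. The leukocyte marker PTPRC (3.50) and the endothelial marker PECAM1 (5.20) were low, whereas CD14, SFTPC, COL1A1 and PDGFRB had means above the table's median. The table has no detection calls, so a low level cannot be told from background signal. In such bulk samples, fewer cells with a transcript and less of it per cell cannot be told apart either.

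Growth factor receptors activate RAS, then the kinases RAF, MEK and ERK, and ERK switches on genes within minutes. Many of the proteins made in this way act back on the pathway. DUSP6 removes phosphate from ERK in the cytoplasm and DUSP5 does so in the nucleus, where DUSP4 acts on ERK and related kinases. Sprouty proteins (SPRY2, SPRY4) blunt signalling between receptors and RAF, and SPRED2 brings neurofibromin to RAS to switch it off. ETV5 is a transcription factor of the ETS family whose level follows ERK activity. IER3 is a short-lived protein made early after growth factor or stress signals, and PHLDA1 is a growth factor-induced protein with a pleckstrin homology-like domain. In airway epithelium the pathway is best known for driving repair after injury.

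Promoter windows of 250 bases before to 50 after a transcription start were matched by symbol in RefSeq's set on GRCh38.p14. There were 8 entries, for 5 of the 9 genes (SPRED2, SPRY4, PHLDA1, DUSP6 and SPRY2). SPRY2 had 3 windows and SPRED2 had 2. A SPRY2 window and the PHLDA1 window are shown because these genes varied together most closely between replicates, and the DUSP6 window because it holds none of the motifs searched. Capitals mark matches, and all 3 genes lie on the minus strand, printed 5′ to 3′. The SPRY2 window shown, the only one of its 3 with a match, is chr13:80341077-80341376, the PHLDA1 window chr12:76031727-76032026 and the DUSP6 window chr12:89352452-89352751.
SPRY2: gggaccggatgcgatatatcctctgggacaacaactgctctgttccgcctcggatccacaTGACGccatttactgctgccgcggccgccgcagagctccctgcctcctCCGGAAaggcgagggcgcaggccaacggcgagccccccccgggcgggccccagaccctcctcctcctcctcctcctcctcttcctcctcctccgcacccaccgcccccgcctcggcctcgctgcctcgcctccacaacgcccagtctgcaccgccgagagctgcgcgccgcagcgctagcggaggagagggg
PHLDA1: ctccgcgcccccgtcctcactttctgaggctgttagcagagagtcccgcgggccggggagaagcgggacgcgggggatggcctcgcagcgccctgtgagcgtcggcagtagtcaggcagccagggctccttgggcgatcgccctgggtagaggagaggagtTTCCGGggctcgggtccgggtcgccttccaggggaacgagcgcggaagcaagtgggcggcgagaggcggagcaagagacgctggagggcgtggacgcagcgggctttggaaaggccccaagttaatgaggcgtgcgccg
DUSP6: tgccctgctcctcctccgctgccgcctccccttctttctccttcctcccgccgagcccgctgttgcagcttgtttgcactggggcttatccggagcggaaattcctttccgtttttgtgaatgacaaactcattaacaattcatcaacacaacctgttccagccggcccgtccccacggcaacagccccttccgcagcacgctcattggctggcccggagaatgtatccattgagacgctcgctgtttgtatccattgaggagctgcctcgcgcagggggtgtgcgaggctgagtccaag

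The motifs, searched on both strands, were the ETS core CCGGAA, the cyclic AMP response core TGACG, the AP-1 site TGANTCA and the CArG box that serum response factor binds. No match of one motif overlapped that of another. The SPRY2 window shown had TGACG with its first letter at -190 from the start site and CCGGAA at -142. PHLDA1 had the ETS core on the other strand, read here as TTCCGG, at -89. The ETS core was in 2 of the 8 member windows and in 17.2% of 34943 windows genome-wide, TGACG in 3 of 8 and 24.5%, and TGANTCA in 1 of 8 and 7.7%. The CArG box was in 0 of 8 and 1.3%. These are matches of letters and say nothing of binding.

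In 8 of the 9 genes, ETV5 excepted, the levels in controls differed more between the times than those of any exposed group differed from its control. All 9 were lower at 24 h than at 1 h in control cells, and all 9 differences passed the test (adjusted p under 0.05, limma, Benjamini-Hochberg over 11963 genes), where 31.7% of all genes differed in either direction. The choice of the members used the control arrays of 24 h, so these tests and the ranks in controls are not independent of it. Groups outside the choice are read further below. The fall was 39-fold in DUSP5, 25.9-fold in DUSP6, 17.1-fold in IER3 and 10.3-fold in PHLDA1. It was 4.51-fold in DUSP4, 3.79-fold in SPRY2, 2.41-fold in SPRY4, 2.09-fold in SPRED2 and 1.41-fold in ETV5. The members' median difference was -2.17, against -0.01 over all genes. Ranked by size of fall, DUSP5 was at place 1 of 11963 genes, DUSP6 at 5 and IER3 at 8, and 8 of the 9 members were among the 100 largest falls. ETV5, at place 281, was the exception.

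DUSP5 read 7.22, 6.94 and 7.02 in control cells at 24 h, against 12.46, 12.24 and 12.35 in control cells at 1 h (-5.29 ± 0.08 SE, adjusted p = 1.36e-24 by limma). DUSP6 read 5.84, 6.03 and 6.15 in control cells at 24 h, against 10.91, 10.48 and 10.72 at 1 h (-4.70 ± 0.13, adjusted p = 3.46e-19 by limma). For both phosphatases every control array of 24 h lay more than 4 log2 units under every control array of 1 h. Their 24 h control means (7.06 and 6.01) lay under the table's median of 7.18, and low levels cannot be told from background. ETV5 read 6.19, 6.13 and 6.12 in control cells at 24 h, against 6.54, 6.41 and 6.98 at 1 h (-0.50 ± 0.10, adjusted p = 0.000257 by limma). Its groups did not overlap, but the 1 h controls spread widely because replicate 3 was high.

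Over all exposures, DUSP4 ran from 7.60 through a median of 7.87 to 8.31 in the 15 arrays of 24 h, against 9.86 through 10.03 to 10.27 in the 15 of 1 h. SPRY2 ran from 7.32 through 7.74 to 8.23 at 24 h, against 9.61 through 9.78 to 9.92 at 1 h. PHLDA1 ran from 6.79 through 7.34 to 8.01 at 24 h, against 10.26 through 10.64 to 10.95 at 1 h. In these genes, as in DUSP5, DUSP6, SPRY4, SPRED2 and IER3, all 15 later arrays lay below all 15 earlier ones, which held for 585 genes of the table (4.89%). ETV5 departed from this only through the 3 TiO2 arrays at 100 ug/ml. Its other 12 arrays of 24 h (5.98 to 6.33) all lay below the 15 of 1 h (6.41 to 6.98).

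The control arrays of 24 h also entered the choice of the genes, so the time difference was read in groups that did not. With MWCNT at 100 ug/ml, 9 of 9 members were lower at 24 h than at 1 h by limma's test (28.3% of all genes called), from -5.92 in DUSP5 to -0.49 in ETV5. With MWCNT at 10 ug/ml the count was again 9 of 9 (25.8% of all genes called), from -5.32 in DUSP5 to -0.33 in ETV5. ETV5 missed the threshold there without MWCNT 10 replicate 2 at 1 h (8 of 9, adjusted p = 0.0711 by limma, over all alternatives 0.00376 to 0.0711). With TiO2 at 10 ug/ml the count was 8 of 9 (27.6% of all genes called), and ETV5 differed by -0.25 ± 0.10 (adjusted p = 0.0583 by limma). DUSP5 held place 2 among all falls in each of the 4 exposed series, including TiO2 at 100 ug/ml.

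**Figure D1:**
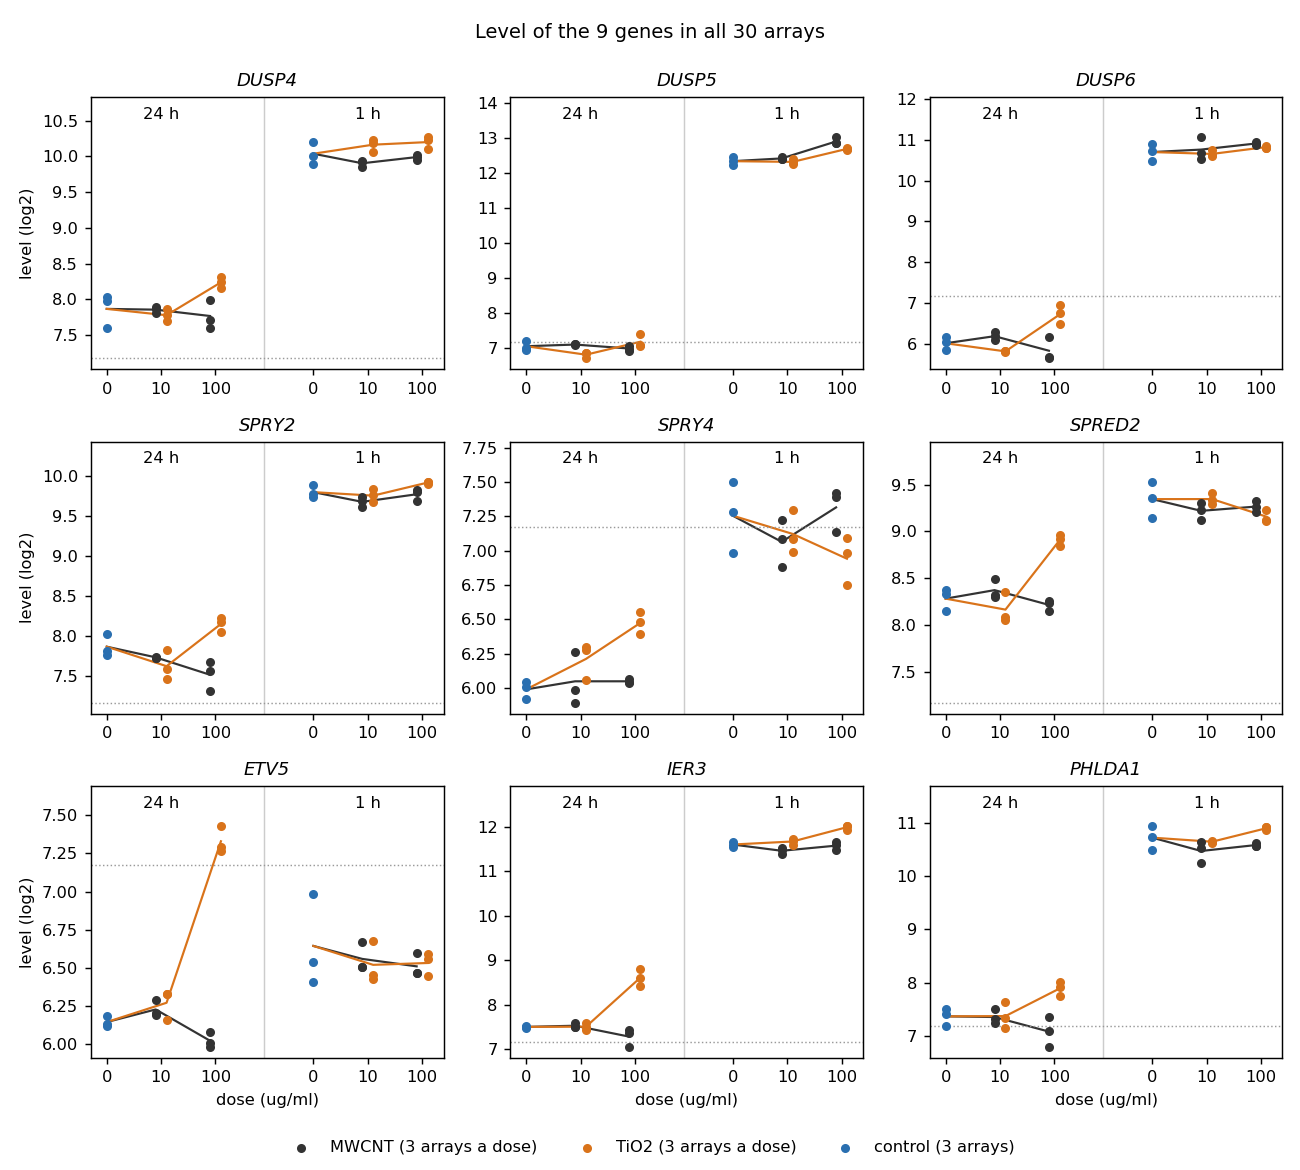
Level (log2, y axis, scale set per gene) of the 9 genes by dose in ug/ml at 24 h and at 1 h. Points are arrays, 3 per group, lines join group means, and the dotted line is the table's median of 7.18. In 8 genes every 24 h array lies below every 1 h array, and in ETV5 the 3 TiO2 arrays at 100 ug/ml and 24 h (7.27 to 7.43) lie above all others.

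**Figure D2:**
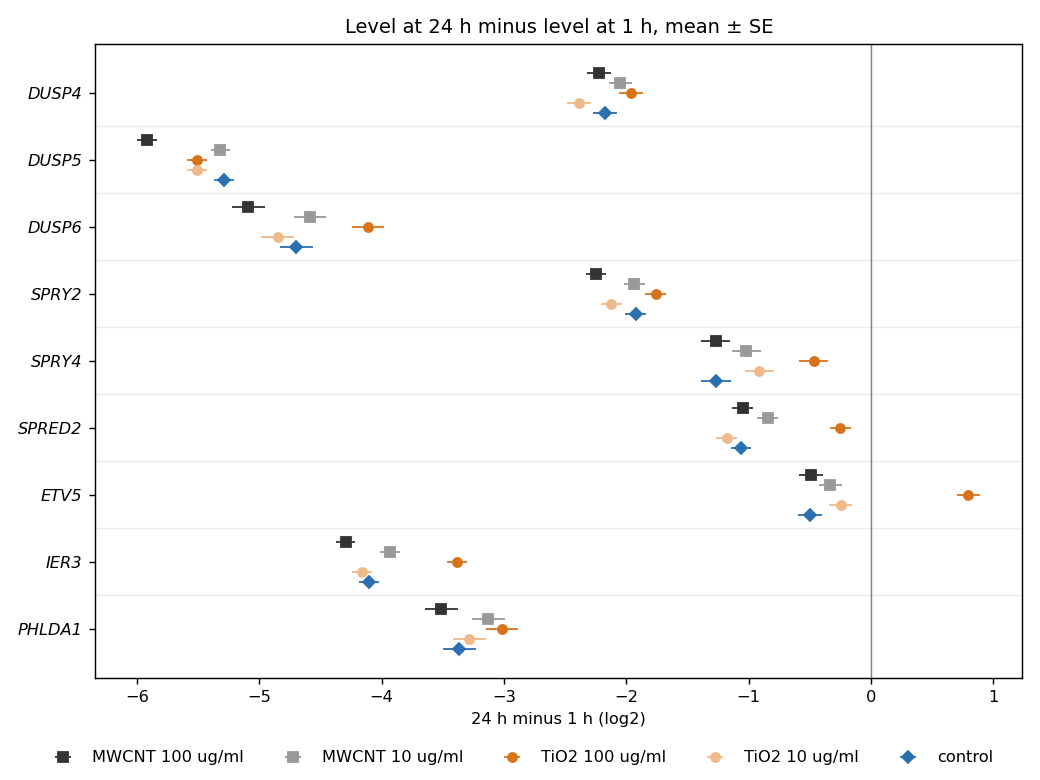
Difference in level at 24 h minus 1 h (log2, x axis) with its SE for each gene and exposure. Points left of 0 are lower at 24 h. Only ETV5 with TiO2 at 100 ug/ml lies right of 0, at 0.80.

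At 24 h, the contrast by which the genes were chosen set TiO2 at 100 ug/ml against control, and all 9 were higher in mean, by a median of 0.53 against -0.03 over all genes. In 8 of the 9 the 3 TiO2 arrays were all above the 3 controls, which held for 11.7% of all genes. Nothing is read from that count, since the choice fixed it. The differences were 2.27-fold for ETV5 and 2.15-fold for IER3, 1.63-fold for DUSP6, 1.54-fold for SPRED2, 1.44-fold for PHLDA1, 1.40-fold for SPRY4, 1.29-fold for DUSP4, 1.22-fold for SPRY2 and 1.09-fold for DUSP5. The smallest with separate arrays was SPRY2 at 0.28, and the member whose arrays overlapped was DUSP5 at 0.13.

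Among the phosphatases, DUSP6 read 6.94, 6.74 and 6.47 with TiO2 at 100 ug/ml, against 5.84, 6.03 and 6.15 in 24 h controls (0.71 ± 0.13 SE). DUSP4 read 8.31, 8.24 and 8.17 with TiO2, against 7.60, 8.03 and 7.97 in controls (0.37 ± 0.10). Control replicate 1 was low in DUSP4, and without it the difference was 0.24. DUSP5 read 7.41, 7.06 and 7.10 with TiO2, against 7.22, 6.94 and 7.02 in controls (0.13 ± 0.08). Here the groups overlapped, and without TiO2 replicate 1, the high array, the difference was 0.02. DUSP5, with the deepest fall over time, thus had the smallest difference of the 9 at 24 h.

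Among the RAS-RAF inhibitors, SPRED2 read 8.96, 8.84 and 8.92 with TiO2 at 100 ug/ml, against 8.15, 8.37 and 8.33 in controls (0.63 ± 0.08). SPRY4 read 6.39, 6.55 and 6.48 with TiO2, against 6.05, 5.92 and 6.0 in controls (0.49 ± 0.12). SPRY2 read 8.23, 8.18 and 8.05 with TiO2, against 8.03, 7.77 and 7.82 in controls (0.28 ± 0.09). All 3 TiO2 arrays were above all 3 controls in each of these genes, by a narrow margin in SPRY2.

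ETV5, the transcription factor, read 7.43, 7.29 and 7.27 with TiO2 at 100 ug/ml, against 6.19, 6.13 and 6.12 in controls (1.18 ± 0.10). IER3 read 8.80, 8.61 and 8.43 with TiO2, against 7.48, 7.51 and 7.53 in controls (1.11 ± 0.08). PHLDA1 read 8.01, 7.92 and 7.74 with TiO2, against 7.51, 7.18 and 7.40 in controls (0.53 ± 0.13). In all 3 genes the groups did not overlap, and in ETV5 and IER3 the gap between them exceeded the range within either. TiO2 at 100 ug/ml had the highest mean of the 5 groups at 24 h in 9 of 9 genes, and its 3 arrays were the 3 highest of 15 in 8 of 9, DUSP5 excepted, against 1.84% of all genes. These arrays also chose the members, so nothing is read from either count.

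Set against the fall over time in controls, these differences were small in most members. They came to 2.4% of the control fall in DUSP5, 14.7% in SPRY2, 15.1% in DUSP6, 15.6% in PHLDA1, 17.1% in DUSP4 and 27.0% in IER3. They came to 38.3% in SPRY4 and 58.9% in SPRED2. ETV5 differed, in the probe set used for it: its difference was 237.5% of its control fall, so that its TiO2 arrays at 24 h stood above its 1 h arrays. In its other probe sets these TiO2 arrays overlapped the 1 h arrays. Between the times at this dose, 8 of 9 members were lower in all 3 arrays at 24 h than at 1 h, against 18.3% of all genes, and ETV5 was higher by 0.80 ± 0.10. SPRED2 was lower by 0.25 ± 0.08 and SPRY4 by 0.47 ± 0.12, against falls of 0.85 to 1.18 and of 0.91 to 1.27 in the other 4 series.

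The other comparisons at 24 h with the same arrays ran alike and share them, so none is a separate piece of evidence. MWCNT at 100 ug/ml lay below TiO2 at 100 ug/ml in all 3 arrays for 9 of 9 members, against 14.3% of all genes, with a median difference of -0.69. The extremes were IER3 at -1.33 and DUSP5 at -0.20, which was -0.08 without TiO2 replicate 1. TiO2 at 100 ug/ml lay above TiO2 at 10 ug/ml in all 3 arrays for 9 of 9, against 7.24% of all genes, with a median of 0.53 and a range of 0.26 in SPRY4 to 1.10 in IER3.

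At the lower TiO2 dose and with MWCNT, none of the 9 genes passed the test at 24 h. These comparisons share their control arrays with the contrast that chose the genes. TiO2 at 10 ug/ml called 0 of 9 members by limma, against 6.05% of all genes, and 2 members had an unadjusted p under 0.05. These were DUSP5 at -0.24 ± 0.08 (adjusted p = 0.0675 by limma) and SPRY2 at -0.24 ± 0.09 (adjusted p = 0.0828 by limma), both lower than in controls. DUSP5 read 6.72, 6.88 and 6.87 with TiO2 at 10 ug/ml, against 7.22, 6.94 and 7.02 in controls, with no overlap. Without control replicate 2 its adjusted p was 0.0384 (0.0384 to 0.319 over the alternatives), and without TiO2 10 replicate 2 that of SPRY2 was 0.0294 (0.0294 to 0.352, limma). The other members lay between -0.20 in DUSP6 and 0.22 in SPRY4.

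MWCNT at 10 ug/ml called 0 of 9 members at 24 h by limma (0% of all genes, 0 members and 389 genes at an unadjusted p under 0.05), with differences of -0.13 in SPRY2 to 0.17 in DUSP6. MWCNT at 100 ug/ml likewise called 0 of 9 (0% of all genes, 3 members and 661 genes at an unadjusted p under 0.05). At that dose 8 of 9 members were lower in mean than in controls, SPRY4 being the exception at 0.06. SPRY2 read 7.68, 7.56 and 7.32 with MWCNT at 100 ug/ml, against 8.03, 7.77 and 7.82 in controls (-0.35 ± 0.09, adjusted p = 0.799 by limma). IER3 read 7.43, 7.36 and 7.06 with MWCNT, against 7.48, 7.51 and 7.53 in controls (-0.22 ± 0.08, adjusted p = 0.88 by limma). PHLDA1 differed by -0.29 ± 0.13 (adjusted p = 0.896 by limma), and its arrays overlapped. The arrays did not overlap in SPRY2 and IER3, nor in ETV5 at -0.12. The shares of all genes lower in mean or without overlap were not counted. Nothing is read from how many members did so.

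With arrays weighted by how well they fitted, limma called 5 members lower with MWCNT at 100 ug/ml, namely SPRY2 (-0.30), DUSP6 (-0.36), PHLDA1 (-0.32), IER3 (-0.23) and DUSP4 (-0.24). That setting gave weight 4.869 to control replicate 3 of 24 h and 0.308 and 0.408 to the other controls, so it rests mostly on a single control array. The share of all genes called in that setting was not counted, so the 5 calls cannot be set against it. Over the alternatives the adjusted p of SPRY2 ran from 0.00907 to 1.0.

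**Figure D3:**
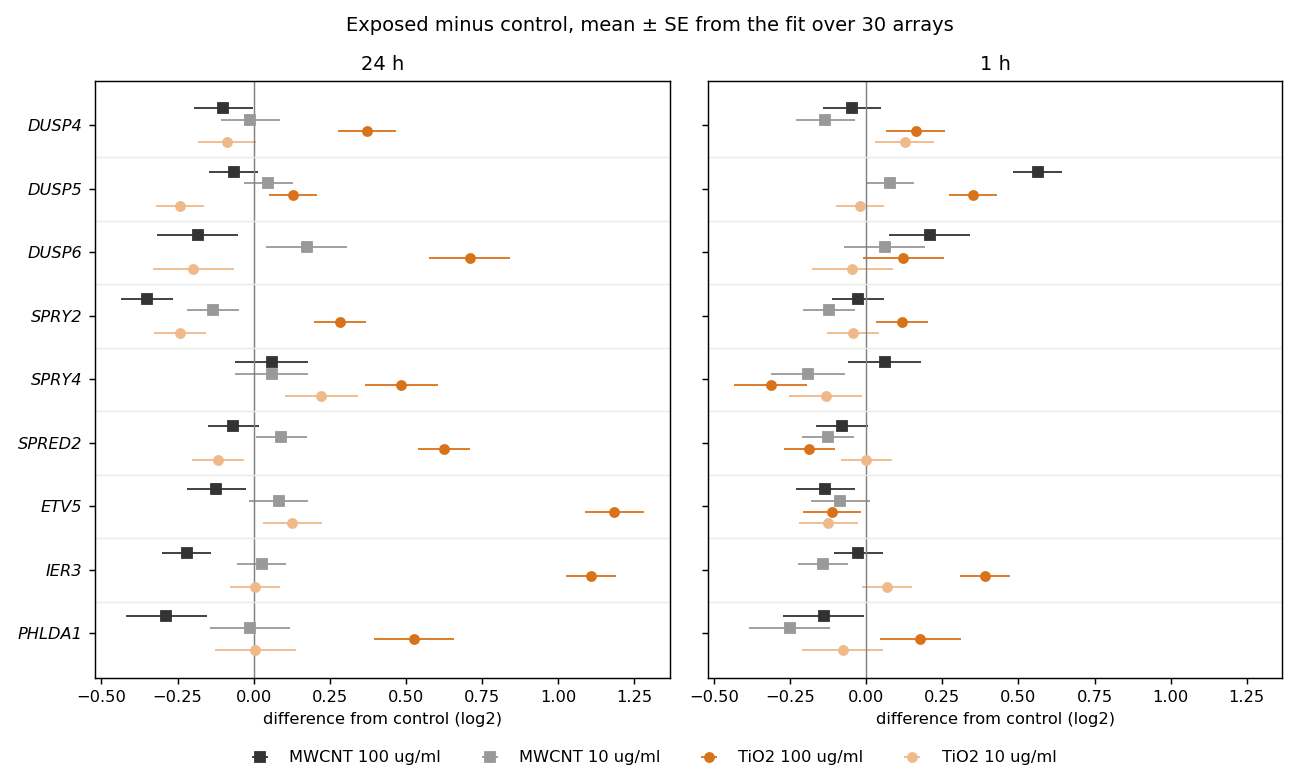
Difference from the control of the same time (log2, x axis) with its SE for each gene, for 4 exposures at 24 h and at 1 h. At 24 h TiO2 at 100 ug/ml lies right of 0 in all 9 genes, from 0.13 to 1.18, and at 1 h DUSP5 and IER3 stand out.

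At 1 h, when the genes were at their high level, few exposures moved them. MWCNT at 100 ug/ml raised DUSP5 alone (1 of 9 members, against 1.7% of all genes). DUSP5 read 13.03, 12.85 and 12.86 with MWCNT at 100 ug/ml, against 12.46, 12.24 and 12.35 in 1 h controls, with no overlap. The difference was 0.56 ± 0.08 or 1.48-fold (adjusted p = 7.4e-05 by limma), and it passed in 13 of 13 alternative settings (adjusted p 2.61e-05 to 0.0273). DUSP6 differed by 0.21 ± 0.13 (adjusted p = 0.586 by limma), and the other 7 members lay between -0.14 and 0.06.

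TiO2 at 100 ug/ml raised DUSP5 and IER3 at 1 h (2 of 9 members, against 2.12% of all genes). IER3 read 11.94, 12.02 and 12.02 with TiO2 at 100 ug/ml, against 11.55, 11.66 and 11.60 in controls, with no overlap (0.39 ± 0.08, 1.31-fold, adjusted p = 0.00709 by limma). DUSP5 read 12.68, 12.71 and 12.71 with TiO2, against 12.46, 12.24 and 12.35 in controls, again with no overlap (0.35 ± 0.08, 1.28-fold, adjusted p = 0.0144 by limma). Each call depended on single arrays. Without control replicate 1 the adjusted p of IER3 was 0.051, the highest of its 13 alternatives (from 0.00296). For DUSP5 it was 0.116 without control replicate 2, 0.0658 without TiO2 replicate 3 and 0.112 when only these 2 groups were fitted (limma, 0.00414 to 0.116 over the alternatives).

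IER3, with the next to highest difference from control at 24 h, had the highest of the 9 at 1 h with TiO2 at 100 ug/ml. ETV5, highest at 24 h, differed at 1 h from control by -0.11 ± 0.10 (adjusted p = 0.753 by limma), SPRED2 by -0.19 ± 0.08 (adjusted p = 0.406) and SPRY4 by -0.31 ± 0.12 (adjusted p = 0.27). SPRY4 read 6.98, 7.09 and 6.75 with TiO2, against 7.28, 6.98 and 7.50 in controls, and the groups overlapped. DUSP6, DUSP4, SPRY2 and PHLDA1 lay between 0.12 and 0.18, and none passed.

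The 10 ug/ml doses called no member at 1 h. MWCNT at 10 ug/ml gave 0 of 9 by limma (0.0669% of all genes called, and 0 members at an unadjusted p under 0.05), with differences of -0.25 in PHLDA1 to 0.08 in DUSP5. TiO2 at 10 ug/ml gave 0 of 9 (0.711% of all genes called, and 0 members at an unadjusted p under 0.05), with differences of -0.13 in SPRY4 to 0.13 in DUSP4. The other DUSP4 probe set differed more there, as given below. Between doses at 1 h, DUSP5 was higher at 100 than at 10 ug/ml with both particles. For MWCNT the difference was 0.48 ± 0.08 (adjusted p = 0.00109 by limma, 1 of 9 members, 0.635% of all genes called), and it passed in 13 of 13 alternatives. For TiO2 it was 0.37 ± 0.08 (adjusted p = 0.0335 by limma, 1 of 9 members, 0.293% of all genes called), and it missed the threshold in 6 of 6 fits that left out an array (adjusted p 0.0539 to 0.285).

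MWCNT against TiO2, both at 100 ug/ml and 1 h, called 0 of 9 members by limma (0.0167% of all genes called, 5 members and 756 genes at an unadjusted p under 0.05). IER3 read 11.67, 11.59 and 11.49 with MWCNT, against 11.94, 12.02 and 12.02 with TiO2 (-0.42 ± 0.08, adjusted p = 0.108 by limma). Its arrays did not overlap, and the adjusted p was 0.0368 when dim genes were left out (0.0368 to 0.795 over the alternatives). DUSP5 differed by 0.21 ± 0.08 (adjusted p = 0.701 by limma) and SPRY4 by 0.37 ± 0.12 (adjusted p = 0.572). These misses do not show that the particles acted alike on these genes.

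Whether an exposure's difference from control changed between the times was tested for the exposures other than TiO2 at 100 ug/ml. These tests share the 24 h control arrays with the contrast that chose the genes. For MWCNT at 100 ug/ml the difference from control changed in DUSP5 alone, by -0.63 ± 0.11 (adjusted p = 0.00327 by limma, 1 of 9 members, 0.669% of all genes called). DUSP5 differed from control by -0.07 at 24 h and by 0.56 at 1 h. The call was lost when only these 4 groups were fitted (adjusted p = 0.062 by limma, from 0.000832 over the alternatives). At 10 ug/ml no member's effect changed between the times by limma, with MWCNT (0% of all genes called, 0 members and 679 genes at an unadjusted p under 0.05) or with TiO2 (0.0167% of all genes called, 1 member and 1614 genes at an unadjusted p under 0.05). For TiO2 at 100 ug/ml the change is a description: it was 1.30 in ETV5, 0.81 in SPRED2, 0.80 in SPRY4, 0.72 in IER3 and 0.59 in DUSP6. It was -0.22 in DUSP5, so that the DUSP5 difference from control was smaller at 24 h than at 1 h.

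More than 1 probe set was present for 5 of the 9 genes, and the set with the highest mean was used for the gene. Of 11 other sets, 9 were higher with TiO2 at 100 ug/ml than in controls at 24 h, as were all 5 whose mean lay above the table's median. They read the same genes in the arrays that chose the members, so nothing is read from these counts. The other DUSP6 sets differed by 0.89 and 0.37, and the other DUSP4 set by 0.63 ± 0.22. In that DUSP4 set the arrays overlapped, and control replicate 1 was low at 6.57. The other PHLDA1 sets, between 0.20 and 0.30, and the other ETV5 sets, at 0.32 and 0.19, differed by much less than the sets used for those genes. The ETV5 set at 0.19 did not fall over time in controls, averaging 6.18 at both times. The other SPRED2 sets, at -0.01 and -0.09, had the lowest means of the 20 sets, and neither passed the test over time in controls. With all sets of a gene averaged, the 24 h differences were 0.56 in ETV5, 0.31 in PHLDA1 and 0.18 in SPRED2, against 1.18, 0.53 and 0.63 with the set used.

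Over time in controls, 8 of the 11 other sets were lower at 24 h than at 1 h by limma's test over all probe sets. The share of all probe sets called was not counted, and of genes 31.7% were called. PHLDA1 again was uneven, with its other sets between -3.02 and -0.46. At 1 h, TiO2 at 100 ug/ml raised the other DUSP4 set by 0.88 ± 0.22 (adjusted p = 0.029 over probe sets, limma), and 1 of the other DUSP6 sets by 0.35 ± 0.09 (adjusted p = 0.0378, limma). The sets used for these genes did not pass there. Gene-level calls for DUSP4 and DUSP6 at 1 h thus depend on which set is read. With TiO2 at 10 ug/ml at 1 h the other DUSP4 set was higher than control by 0.78, against 0.13 in the set used. Neither of these 10 ug/ml differences passed.

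**Figure D4:**
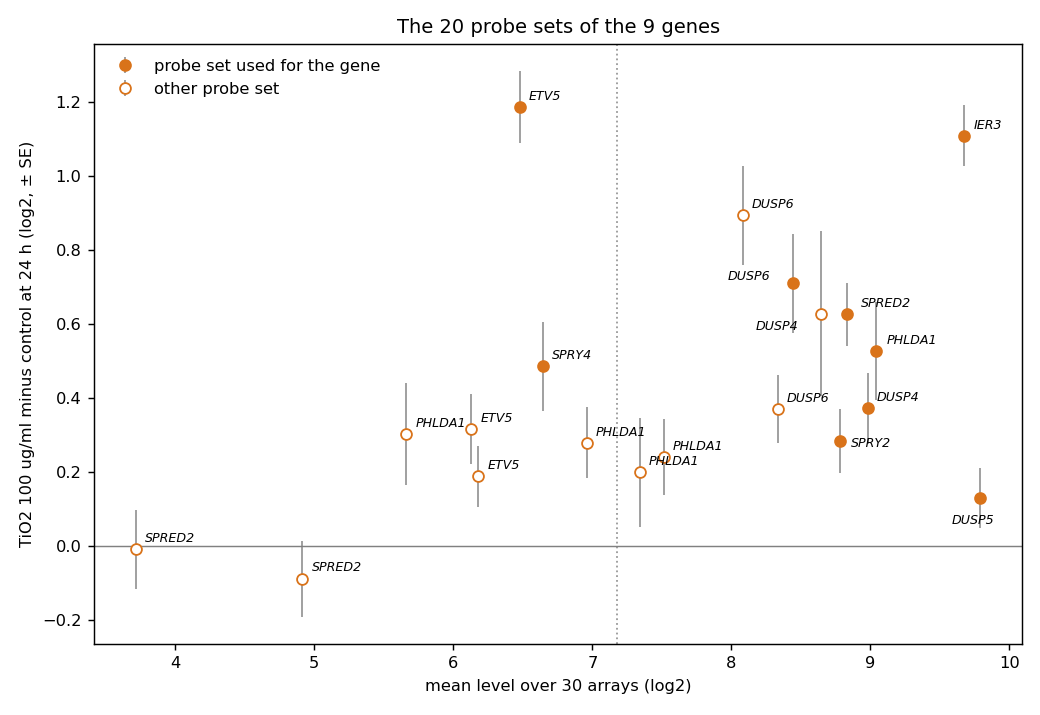
Difference of TiO2 at 100 ug/ml from control at 24 h (log2, y axis, with SE) against mean level over 30 arrays (log2, x axis) for the 20 probe sets. Filled points were used for the genes, open points are the 11 others, and the dotted line is the table's median of 7.18. The other ETV5 sets lie at 0.32 and 0.19, far below the set used at 1.18.

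The rest of the pathway was read from 3 lists. Of 28 genes of the cascade between receptor and ERK, 22 were on the table. In controls at 24 h against 1 h, 2 of the 22 were higher and 5 lower by limma's test, where 31.7% of all genes differed in either direction. The list's calls lie near that share, so nothing is read from their number. The list's median was -0.03, against -0.01 over all genes. The kinase MKNK2, which ERK activates, fell (-0.39), as did the adaptor SHC1 (-0.32), the ETS factor ELK4 (-0.27) and the RAS inhibitor NF1 (-0.25). No cascade gene passed in the tested comparisons of an exposure with its control, where 0% to 6.05% of all genes were called.

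Of 12 other phosphatase and feedback genes, 9 were on the table. By limma's test, 5 were lower and 0 higher in controls at 24 h than at 1 h. Of all 11963 genes, 1489 were lower and 2307 higher there (31.7% called). This list and the next were written with earlier results known. DUSP1, an early MAP kinase phosphatase, fell (-2.37), as did DUSP2 (-2.17), DUSP10 (-1.16) and DUSP8 (-0.61). Of 19 other genes that ERK output is known to include, 17 were on the table. In the same contrast and test 11 were lower and 0 higher, with a median of -0.60, against -0.01 over all genes. MAFF, a small MAF transcription factor, fell (-3.79), as did the cytokine LIF (-3.41), the cyclin CCND1 (-2.82) and the AP-1 subunit FOSL1 (-2.82).

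At 1 h with TiO2 at 100 ug/ml, 1 of 9 phosphatase and feedback genes rose (DUSP3 by 0.20, adjusted p = 0.0207 by limma) and 1 of 17 output genes (FOSL1 by 0.43, adjusted p = 0.0269 by limma). There, 2.12% of all genes were called. No gene of either list passed with MWCNT at 100 ug/ml against control at 1 h (1.7% of all genes called). The medians there were 0.12 and 0.01, against -0.02 over all genes. At 24 h with TiO2 at 10 ug/ml (6.05% of all genes called), DUSP7 fell by 0.26, and the output genes EPHA4 and GPR3 rose by 0.37 and 0.39.

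In the contrast that chose the members, TiO2 at 100 ug/ml against control at 24 h, the lists are described without a test. The 3 TiO2 arrays were all above the 3 controls in 1 of 22 cascade genes and all below in 2, where 11.7% and 20% of all genes lay so. The ETS factor ELK3 was the higher one, at 0.45, and HRAS at -0.17 and MAP2K1 at -0.06 the lower ones. Of 9 phosphatase and feedback genes, 3 lay above (DUSP1 at 0.39, SPRY1 at 0.34 and DUSP3 at 0.14) and DUSP7 lay below at -0.22. Of 17 output genes, 6 lay above, namely GPR3 at 0.46, TRIB2 at 0.43, EPHA2 at 0.40, ETV4 at 0.36, EPHA4 at 0.30 and PLAUR at 0.12. The 2 below were SLC20A1 at -0.13 and SLC4A7 at -0.18. The medians of the lists were -0.0026 for the cascade, 0.03 for the feedback genes and 0.16 for the output genes, against -0.03 over all genes. The lists were written with earlier results known, so these counts describe the arrays.

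Over all other genes with a mean above the table's median, those whose profile over the 30 arrays was most like the members' mean standardised level were SH3BP4 (Pearson r = 0.9872), HES1, KLF10, BHLHE40, EPHA2, SDC4, DUSP1 and JUNB (r = 0.9799). EPHA2 and DUSP1 are also on the lists above. The arrays fall into the 2 times, so this likeness mostly repeats the fall between them. HES1, a repressor in Notch signalling, averaged 6.68 with TiO2 at 100 ug/ml at 24 h, against 5.73 in 24 h controls. KLF10, a zinc finger transcription factor, averaged 10.38 with TiO2, against 9.82 in those controls. The members' own r with their mean was 0.96 to 0.99, except 0.47 in ETV5. Each member is part of that mean, which raises its r.

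Deviations from group means, which hold neither time nor exposure, were compared between members over the 30 arrays. Of 36 pairs, 33 correlated above 0, with a median r of 0.33. SPRY2 and PHLDA1, whose promoter windows are shown above, had the highest r, 0.84, and DUSP4 and DUSP5 the lowest, -0.21. Points share their array and its normalisation, so these values are a description. Pairs of other genes were not compared, so nothing is read from the count of pairs above 0.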

How the data were processed

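Per the submitters' processing notes, the authors made the deposited log2 values by RMA (no version is given). This robust multi-array average corrects background, normalises arrays by quantiles and sums the probes of a set. They were used as deposited. Of 22277 probe sets, 62 were array controls. The platform annotation, which can be old, gave 19064 probe sets 1 symbol, 1043 several and 2108 none. For the 4310 genes with more than 1 set, the set with the highest mean was used. A model with 10 group means over 30 arrays was fitted in limma 3.58.1 (R 4.3.3) with two-sided moderated tests. P-values were adjusted by Benjamini-Hochberg over 11963 genes, with 0.05 as the threshold, and for other probe sets over 22215. With 3 against 3 arrays an exact permutation p is at least 0.1. ± gives the SE of the fit. Tables and plots used matplotlib 3.10.9, numpy 2.4.6, pandas 2.3.3 and Python 3.11.15.

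The members, lists, markers and tests were chosen with earlier results of these data known. Named genes were all members, the 8 most like them over 30 arrays with a mean above the table's median, and up to 4 called genes per list by size of change. Others named from a list's few calls, and all those of TiO2 at 100 ug/ml and 24 h, were added after their values were seen. Alternatives were a filter on dim genes (6927 left), cyclic loess, array weights, only the compared groups, a replicate block, the mean of all probe sets, each probe set tested and leaving out each array. Replicate numbers were not taken to pair samples. The fitting steps were tested on simulated data. Probe set positions are not given, as the sources used here name no build.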

Additional observations from a re-analysis of the deposited data

Results flagged for a closer look

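The effect of MWCNT at 100 ug/ml on DUSP5 differed between the times by -0.63 (24 h minus 1 h, adjusted p = 0.00327 by limma). It was the only one of 27 such differences tested for the 9 genes to pass, the other 26 covering the other members with this exposure and all members at 10 ug/ml of either particle. All 27 use the control arrays of 24 h, which entered the choice of the genes.

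With TiO2 at 100 ug/ml, 3 genes differed from control in opposite directions at the 2 times, higher in mean at 24 h and lower in mean at 1 h. None of the 3 differences at 1 h passed (adjusted p by limma 0.753 in ETV5, 0.406 in SPRED2 and 0.27 in SPRY4). In each gene the arrays overlapped at 1 h. The other SPRED2 probe sets were not higher in mean at 24 h. The difference of the effects was 1.30 in ETV5, 0.81 in SPRED2 and 0.80 in SPRY4. Without control replicate 3 of 1 h, the high array, that of ETV5 was 1.13. That is less than its 24 h difference of 1.18, so its 1 h mean was then not below control. These differences were not tested, since the genes were chosen on the 24 h contrast, and the choice itself favours such a pattern.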

How the results depend on the processing

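For 180 member values, 2144 of 2193 alternative values counted as unchanged, 13 lost the call, 11 gained it and 24 moved. A tested value counted as unchanged if it stayed on its side of the threshold, with its direction kept where it was called. Where neither fit called it, its direction could differ. An untested value counted as unchanged if it kept its direction and moved by less than the replicate spread. DUSP4's change of effect with TiO2 at 100 ug/ml reversed to -0.0202 with the mean of all probe sets. The following counts of called members changed. TiO2 100 against control at 1 h called 1 when only the compared groups were fitted, and 1 to 2 when an array was left out. TiO2 100 against 10 at 1 h called 0 with only the compared groups and 0 to 0 without any 1 array. TiO2 10 against control at 24 h called 1 with the dim genes left out or with array weights, and 0 to 1 without an array. MWCNT 100 against control at 24 h called 5 with array weights, and the change of its effect between the times called 0 with only the compared groups. With the mean of all probe sets, the members' median was -0.50 for MWCNT 100 against TiO2 100 at 24 h and 0.24 for the change of the TiO2 100 effect. Without an array the median of TiO2 100 against 10 at 24 h ran from 0.49 to 0.66. In each case the cause was not tested. The share of all genes called was not counted for these settings.

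Replicate numbers were not taken to pair the samples: in every comparison some same-numbered samples' deviations correlated at or under 0.1 (lowest -0.25). Same and different numbers were not compared, so this rule cannot exclude pairing. In controls between the times the same-numbered values were 0.30, 0.18 and 0.03. With the replicate number as a block, MWCNT 100 against TiO2 100 at 1 h called 1 member, IER3 (-0.42, adjusted p = 0.0452 by limma), as it did with dim genes left out (1 member), and no other count of called members changed by over 1.5 times.

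The number of arrays and the unknown count of donors limit these values, and no detection calls show how far dim sets lie above background. The probe sets used for SPRY4 and ETV5 had means over all arrays under the table's median, and those of DUSP5 and DUSP6 lay under it in 24 h controls. How far background limits the size of their falls was not tested.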

Other observations

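Within the 15 arrays of 24 h, other genes followed the members' mean standardised level most closely, a choice made after their values were seen. They were ITGB5 (Pearson r = 0.9739), LBH, EPHA2, CHST15, HMGB3, SOX4, NRP1 and ABCC3 (r = 0.9257), and EPHA2 was the only one that was also among the 8 most alike over all 30 arrays. ABCC3, an efflux transporter, averaged 8.74 with TiO2 at 100 ug/ml, against 7.85 in 24 h controls. NRP1, a co-receptor for semaphorins and VEGF, averaged 8.74 with TiO2 at 100 ug/ml, against 8.11 in 24 h controls. The integrin subunit ITGB5 averaged 9.59 with TiO2 at 100 ug/ml, against 9.31 in 24 h controls. These values describe arrays that also chose the members, and carry no test. ETV5, at r = 0.47 over all 30 arrays, had r = 0.9608 with the members' mean within 24 h, and DUSP5 had the lowest of the members there, 0.62. Each member is part of that mean, which raises its r.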
